A study of Mus musculus with 12 samples.

Results

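The genes described here are the mouse mitochondrial ribosomal protein genes, taken as every symbol that begins with Mrpl or Mrps followed by a digit, pseudogenes left out. There were 77 such genes among 17866 genes in the knockdown table, and 77 among 19390 genes in the immunoprecipitation table. The rule used names only and no measured value. Of the 77 symbols, 48 begin with Mrpl and 29 with Mrps. By their known place in the particle, 50 belong to the large subunit and 26 to the small subunit. Mrps30 and Mrps18a carry small-subunit symbols but belong to the large subunit. Mrps36 carries a ribosomal symbol but is a part of the alpha-ketoglutarate dehydrogenase complex, and it is kept here as the rule took it.

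The mitochondrial ribosome translates the few messages encoded by mitochondrial DNA, which specify core subunits of the respiratory chain and of ATP synthase. Its RNA is made inside the organelle, whereas all its proteins are encoded in the nucleus, made on cytosolic ribosomes and imported. Part of the proteins descend from bacterial ribosomal proteins, and the rest were acquired by the mitochondrial particle. In the early mouse embryo the mitochondria are inherited from the oocyte.

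The study examined Eif1ad3, a gene named for a domain of translation initiation factor 1A, in mouse 2-cell embryos. In the knockdown experiment 2 control libraries, labelled WT, were compared with 2 libraries labelled Eif1ad3_KD. The series text describes 1-cell embryos of CF1 mice injected with mRNA for the RNA-cutting enzyme RfxCas13d, with guide RNAs for the knockdown and without them for the control; the sample text describes antisense morpholino oligos given to oocytes together with Cas13d protein. In the immunoprecipitation experiment, zygotes received His-tagged Eif1ad3 mRNA at 200 ng/uL, and 200 cells per replicate were lysed at the 2-cell stage. RNA was recovered with beads carrying either an anti-His antibody (2 libraries, called His) or control IgG (2 libraries, called IgG), and all 4 of these libraries carry the overexpression label. All libraries were made with a Smart-seq kit from poly(A) messages, without molecular identifiers. Nothing in the labels says that replicates A and B came from separate animals or injections, so the p-values measure the spread between these libraries only.

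Values are the deposited CPM (each gene's reads scaled to a common library total), not divided by transcript length, so an order of CPM between genes is not an order of molecules. Library totals were between 18173916 and 27902514 reads in the knockdown experiment and between 4678563 and 8364126 reads in the immunoprecipitation. A count of 0 allows a level of up to 0.165 CPM (3 reads) in the shallowest knockdown-experiment library and up to 0.641 CPM in IgG B, for counting error only. Eif1ad3 stood at 839 and 663 CPM in the controls and at 277 and 377 CPM in the knockdown libraries, 43.5% of the control mean. The knockdown libraries were thus both below the controls, with a log2 fold change of -1.21 (SE 0.33), which did not pass the test across all genes (limma, adjusted p = 0.859). In the immunoprecipitation Eif1ad3 gave 1.35 and 30.8 CPM with IgG beads against 80.3 and 83.6 CPM with anti-His beads (limma, adjusted p = 0.252). The 6 markers of the 2-cell stage listed for the check (Zscan4c, Zscan4d, Zfp352, Obox3, Tdpoz3, Usp17lc) summed to 3223 and 3130 CPM in the controls and to 2333 and 2809 CPM in the knockdown libraries. They summed to 113 and 116 CPM in His and to 1.35 and 48.7 CPM in IgG. The 7 oocyte markers summed to 8105 and 8420 CPM in His and to 3128 and 3736 CPM in IgG. The blood marker Hba-a1 was at 52.6 and 64.8 CPM in His without a read in IgG. The 5 markers of trophectoderm and later embryo summed to 102 and 68.5 CPM in His against 116 and 0.641 CPM in IgG. In IgG Sox17 made up the 116 CPM, and Krt8, Krt18 and Gata3 were at 0 to 0.427 CPM. The 5 listed markers of cumulus and granulosa cells summed to 5.98 and 14.9 CPM in His against 0. By limma 3 of 7 oocyte, 3 of 6 2-cell and 3 of 4 tested trophectoderm and later embryo markers were called higher. So were 1 of 1 tested cumulus and 1 of 1 blood markers, against 35.7% of all genes tested. All of these calls except 2 oocyte markers were in genes with under 1 CPM in both IgG libraries. Such genes entered the test through His alone, and 84.9% of all genes of that kind were called higher. The part of these markers in the members' values was not tested.

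Promoters of 68 of the 77 genes were present in the RefSeq promoter set (mouse build GRCm38.p6, 300 bases from 250 before to 50 after the start). They were searched on both strands for the core letters of 3 factors known for nuclear genes of mitochondrial proteins: CCGGAAG for ETS factors, GCGCA, any base and GCGC for NRF1, and AANATGG followed by CGGC for YY1. ETS and YY1 letters can overlap at their ends, but no match of 1 motif overlapped a match of another in the members. The ETS letters were in 25 of 68 promoters (36.8%), against 16.6% of genes in the knockdown table and 9.93% of all 27025 genes with a promoter. The NRF1 letters were in 13 (19.1%, against 9.48% and 5.19%) and the YY1 letters in 7 (10.3%, against 2.25% and 1.17%). At least 1 of the 3 was found in 38 promoters (55.9%, against 25.5% and 14.8%). A match is a description of these letters, not a binding site. The stretches below are the 120 bases before the start of 4 members that the comparisons return to: Mrps22, with both knockdown libraries above both controls, Mrpl12, with both below, and Mrpl44 and Mrps26, which were lower in His than in IgG. Capitals mark the ETS letters in Mrps22 and the NRF1 letters in Mrpl44 as spelled above, and, as their reverse complement, the ETS letters in Mrps26 and the NRF1 letters in Mrpl12.
Mrps22 (chr9:98601680-98601799, minus strand): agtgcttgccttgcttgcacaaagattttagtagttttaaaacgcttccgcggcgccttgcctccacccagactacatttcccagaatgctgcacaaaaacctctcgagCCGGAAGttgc
Mrpl12 (chr11:120484517-120484636, plus strand): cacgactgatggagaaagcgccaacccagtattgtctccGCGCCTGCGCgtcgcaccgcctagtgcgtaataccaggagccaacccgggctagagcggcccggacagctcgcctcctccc
Mrpl44 (chr1:79775898-79776017, plus strand): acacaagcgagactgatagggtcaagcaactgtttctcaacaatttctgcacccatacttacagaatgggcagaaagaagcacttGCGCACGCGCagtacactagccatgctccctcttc
Mrps26 (chr2:130563637-130563756, plus strand): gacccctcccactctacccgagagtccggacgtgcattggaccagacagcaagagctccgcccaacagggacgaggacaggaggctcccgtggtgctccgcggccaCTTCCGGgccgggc

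In control 2-cell embryos nearly the whole set was read. No member was without a read in control B and 1 (Mrpl19) was without one in control A, while 4 and 5 members were under 1 CPM. The median member stood at 16.2 and 20.04 CPM, and all members together took 2979 and 2955 CPM. The highest mean CPM values belonged to 4 large-subunit genes. Mrpl40 was at 207 and 255 CPM in controls A and B, and Mrpl48 at 250 and 188 CPM. Mrpl51 was at 149 and 180 CPM, and Mrpl34, a homologue of a bacterial protein, at 159 and 138 CPM. The replicate values of Mrpl40 and Mrpl48 overlapped, as did those of Mrpl51 and Mrpl34, and the former pair was above the latter in both controls. The lowest were Mrpl33 at 0.360 and 0.723 CPM, Mrpl36 at 0.800 and 0.402 CPM, Mrps34 at 0.480 and 0.763 CPM, and Mrpl19 at 0 and 1.45 CPM. The 10 highest members held 50.3% and 49.5% of the members' CPM in the 2 controls. The order of the 77 members was close between the controls (Spearman rho 0.962 over the 77 members, as a description).

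The knockdown question is whether lower Eif1ad3 went with other levels of these genes at the 2-cell stage. No member passed the test. Of 76 members tested, 0 had an adjusted p under 0.05 (limma on log2(CPM + 1), Benjamini-Hochberg over all genes), as did 0% of the 13332 genes tested. At an unadjusted p under 0.05 there were 3 members and 726 genes in all. With edgeR 0 members were called, with 2 at an unadjusted p under 0.05, and with DESeq2 0 members, with 3, where DESeq2 called 0.113% of all genes. The remaining member, Mrps34, reached 1 CPM in a single library and was not tested. Fold changes were above 0 for 47 members and below 0 for 29, and the median log2 fold change was 0.13 against 0.02 over all genes tested. They ran from -0.71 to 1.56.

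The 2 knockdown libraries went different ways. Against the control mean on the log2(CPM + 1) scale, the median member was at 0.52 in knockdown A and at -0.26 in knockdown B, where all genes tested stood at 0.14 and -0.17, so that B lay nearer to all genes than A did. The control libraries were at -0.04 and 0.04. In knockdown A 61 of 76 members were above the control mean, and in knockdown B 27 were, against 7846 and 5644 of the 13332 genes tested. For 40 members (52.6%) A was above and B below, against 30.9% of all genes, and for 6 (7.89%, against 14.4%) the reverse held. The median SD between replicates was 0.63 in the knockdown group and 0.24 in the controls for the members, and 0.49 and 0.24 for all genes. The members' summed CPM was 3522 in A and 2672 in B, on either side of both controls. In these libraries, as in all the bulk samples here, fewer cells and less RNA per cell cannot be told apart.

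**Figure D1:**
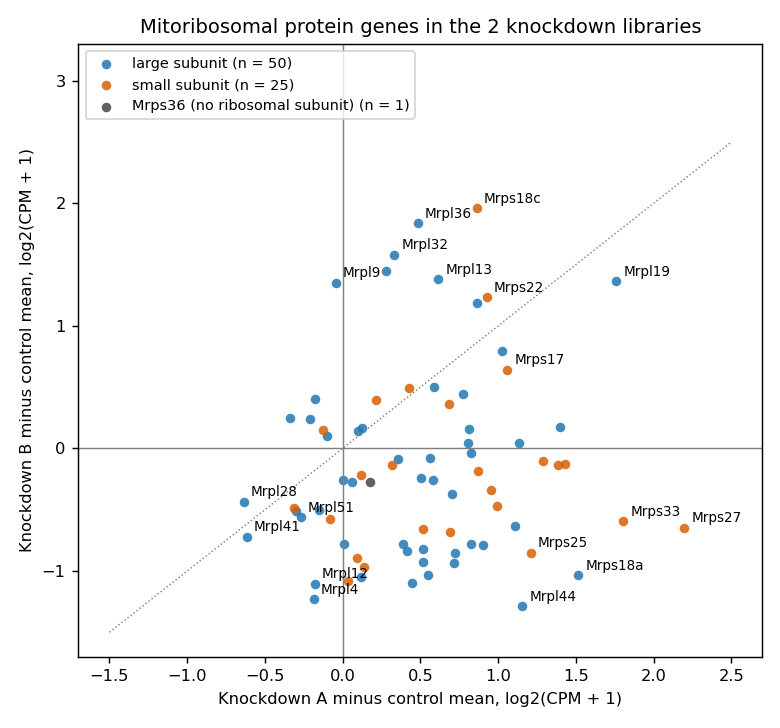
Each point is 1 of the 76 tested members. The x axis gives knockdown library A minus the control mean and the y axis knockdown library B minus the control mean, both on the log2(CPM + 1) scale; the dotted line marks equal differences. The lower right field, above the controls in A and below in B, holds 40 members, among them Mrps27, Mrps33, Mrps18a and Mrpl44, while Mrpl9 and the group around Mrps18c lie high in B.

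Mrps33, a small-subunit protein of mitochondria, was at 32.6 and 37.5 CPM in the controls and at 125 and 22.8 CPM in knockdown A and B. Mrps27, a small-subunit protein with RNA-binding repeats, was at 6.64 and 7.43 CPM in the controls and at 35.8 and 4.13 CPM in the knockdown. Mrps25 was at 40.4 and 44.2 CPM against 99.1 and 23.0 CPM. In all 3 genes the knockdown libraries enclosed both controls, high in A and low in B. Mrpl44, whose protein has the fold of an RNase III, showed the same at 14.4 and 20.3 CPM against 39.4 and 6.44 CPM. Mrpl9 ran the other way, at 111 and 82.7 CPM in the controls against 92.8 in A and 246 CPM in B. These 5 were picked after their values were seen. Markers of the oocyte (Gdf9, Bmp15, Zp1, Zp2, Zp3, Oosp1, Nlrp5) also differed between the knockdown libraries: 5 of 7 were above the control mean in A and 2 of 7 in B, with medians of 0.56 and -1.41 on the log2 scale. Their summed level was 3415 to 4014 CPM in the controls, 6866 CPM in A and 3822 CPM in B. Markers of cumulus and granulosa cells summed to 5.52 and 11.6 CPM in the controls, 13.8 CPM in A and 4.73 CPM in B, with 3 of 7 listed. Markers of trophectoderm and later embryo, 3 of 5 listed, summed to 17.4 and 23.5 CPM, then 38.0 and 9.79 CPM. Markers of the 2-cell stage were below the control mean in both knockdown libraries for 6 of 6, and 4 of them (66.7%, against a background of 18.4%) had both libraries below both controls, with 0 called by limma and 0 at an unadjusted p under 0.05. The part of these marker differences in the members' values was not tested.

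Leaving out 1 knockdown library changed the count and the genes. Without knockdown A, 11 of 73 members passed the limma test (5 higher and 6 lower, against 6.1% and 9% of all genes), and the member median was -0.26. The 5 higher were Mrpl13, Mrpl32, Mrpl50, Mrpl9 and Mrps18c, and the 6 lower Mrpl12, Mrpl34, Mrpl4, Mrpl48, Mrpl57 and Mrps7. Without knockdown B, 3 members passed, all higher (Mrps25, Mrps27, Mrps33), against 2.32% of all genes called higher, and the median was 0.52. No member was called in both fits. Each of them assumes that the lone library varies as the 2 controls do.

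Both knockdown libraries were above both controls for 15 of 76 members (19.7%, against a background of 18.1%), and both below for 6 (7.89%, against 18.4%). The 15 were Mrpl13, Mrpl19, Mrpl21, Mrpl33, Mrpl35, Mrpl36, Mrpl43, Mrpl50, Mrpl52, Mrpl58, Mrps16, Mrps17, Mrps18c, Mrps22 and Mrps26. The 6 were Mrpl4, Mrpl12, Mrpl28, Mrpl41, Mrpl49 and Mrpl51, all of the large subunit. Among the members with both libraries above, the smallest p belonged to Mrpl19, a large-subunit protein with a bacterial homologue. Mrpl19 was at 0 and 1.45 CPM in the controls and at 4.30 and 3.03 CPM in the knockdown, with a log2 fold change of 1.56 (SE 0.63; limma, adjusted p = 0.859). Both knockdown values were above both controls, at few reads: 0 and 36 reads against 120 and 55. Mrps22, a small-subunit protein specific to mitochondria, was at 10.6 and 11.5 CPM against 21.9 and 27.3 CPM. Its log2 fold change was 1.08 (SE 0.46; limma, adjusted p = 0.859), and the groups were apart by more than either group's range. Mrpl13, of the large subunit, was at 26.8 CPM in each control and at 41.6 and 71.3 CPM in the knockdown, with a log2 fold change of 1.00 (SE 0.43; limma, adjusted p = 0.859). For Mrpl13 the knockdown libraries differed more from each other than A did from the controls. Mrps18c, the paralog nearest to the bacterial protein, was at 1.08 and 2.81 CPM against 4.12 and 9.96 CPM (log2 fold change 1.41, SE 0.64), and Mrps17 at 19.8 and 29.0 CPM against 50.9 and 38.0 CPM (0.85, SE 0.43). For both of these the limma adjusted p was 0.859.

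On the lower side the largest fold change was that of Mrpl4, whose bacterial homologue lines the exit tunnel. Mrpl4 was at 156 and 133 CPM in the controls and at 126 and 60.7 CPM in the knockdown, with a log2 fold change of -0.71 (SE 0.42; limma, adjusted p = 0.859). Knockdown A was near control B and knockdown B far below. Mrpl41 was at 78.5 and 44.2 CPM against 38.1 and 35.4 CPM (log2 fold change -0.67, SE 0.43; limma, adjusted p = 0.859), so that the spread between its controls exceeded the gap between groups. Mrpl12, the stalk protein that recruits translation factors, was at 67.7 and 70.8 CPM against 61.0 and 31.7 CPM (log2 fold change -0.64, SE 0.43; limma, adjusted p = 0.861). Mrpl12 was close to the controls in A and low in B. Mrpl51 was at 149 and 180 CPM against 136 and 111 CPM (-0.42, SE 0.34), and Mrpl28 at 21.4 and 24.8 CPM against 14.4 and 16.8 CPM (-0.54, SE 0.45). Their limma adjusted p-values were 0.891 and 0.894. Mrpl28 is the 1 of these 5 whose knockdown libraries were both lower than both controls by more than the controls' own gap and close to each other.

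**Figure D2:**
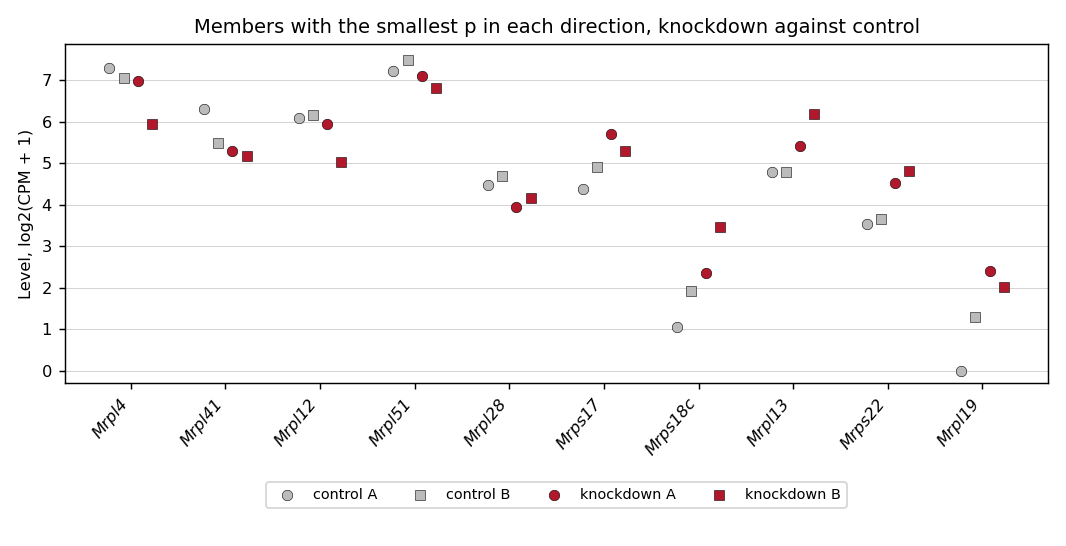
Level of 10 members in log2(CPM + 1) (y axis) in the 2 control libraries (grey) and the 2 knockdown libraries (red); circles are replicate A and squares replicate B. The 5 genes on the left have both knockdown libraries below both controls and the 5 on the right both above, and none passed the test.

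Genes whose symbol goes against their place showed no common direction. Mrps30, of the large subunit, was at 92.1 and 144 CPM in the controls and at 102 and 153 CPM in the knockdown, and replicates A and B were further apart than the groups. Mrps18a was at 3.68 and 2.17 CPM against 9.999 and 0.880 CPM, with the controls enclosed by the knockdown libraries. Its paralog Mrps18b was at 15.8 and 20.04 CPM against 33.3 and 15.5 CPM, again high in A and low in B. Mrps36 was at 12.7 and 13.3 CPM against 14.8 and 10.6 CPM. By subunit, fold changes were above 0 for 29 of 50 large-subunit and 18 of 25 small-subunit genes, with medians of 0.09 and 0.30. The median was -0.11 in the 20 mitochondria-specific genes of the large subunit and 0.46 in the 9 tested of the small subunit. In these 9 the per-library medians were 0.93 in A and -0.58 in B, so that the median over both rests on A. The 25 members with the ETS letters had a median log2 fold change of 0.43 (0.81 in A and -0.09 in B), and the 43 with a promoter but without them one of 0.01 (0.32 in A and -0.28 in B). The members with the letters also stood lower in the controls, with a median of 13.5 CPM against 23.1 CPM without. The ranges of the fold changes overlapped, from -0.46 to 1.41 with the letters and from -0.67 to 1.16 without, and the difference was not tested. For the NRF1 letters the medians were 0.16 in the 13 members with them and 0.11 in the 55 without, and for the YY1 letters 0.13 in 7 and 0.12 in 61.

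**Figure D3:**
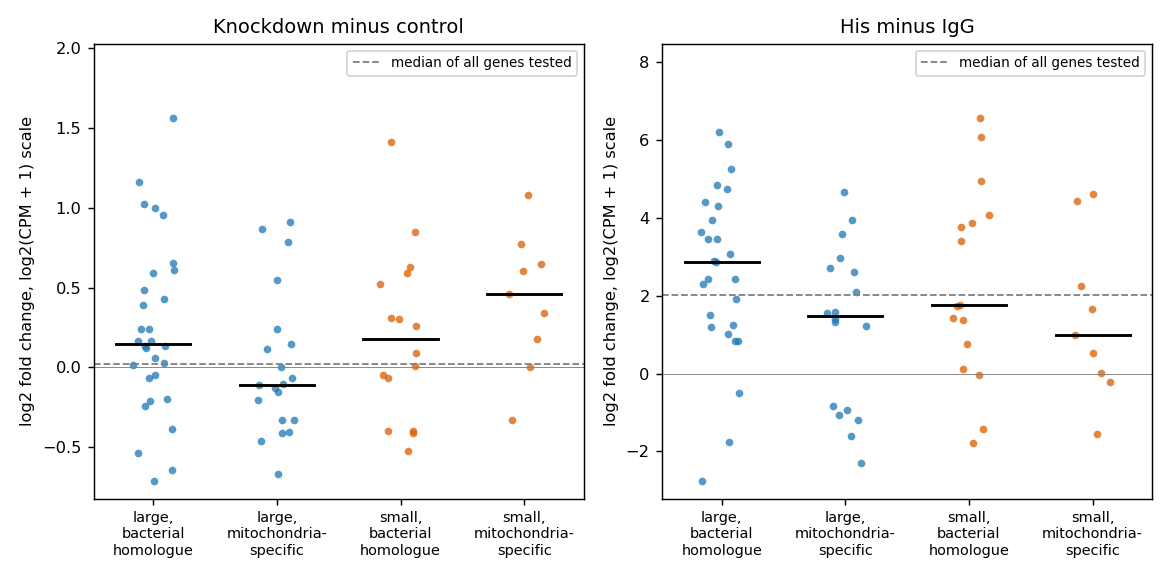
Log2 fold change on the log2(CPM + 1) scale (y axis) of each tested member by subunit and origin (x axis), for knockdown against control on the left and His against IgG on the right; black bars are medians, and the dashed line is the median of all genes tested (0.02 and 2.01). The classes overlap in both comparisons, and the vertical scales differ. The horizontal position within a class is random.

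Other genes of the pathway were taken from lists of known function, again with 0 called by limma. Of the 5 ribosomal proteins under other symbols (Dap3, Ptcd3, Chchd1, Aurkaip1, Gadd45gip1), 3 had fold changes above 0 and 2 below, with a median of 0.35. Dap3, a GTP-binding protein of the small subunit, repeated the divergence, at 66.1 and 49.6 CPM in the controls against 147 in A and 36.3 CPM in B. The 14 translation factors tested had a median of -0.02, with 2 of them above both controls in both knockdown libraries and 2 below (14.3% each, against 18.1% and 18.4% of all genes). Among them Mtif2, the mitochondrial initiation factor that brings the first tRNA, was at 18.6 and 16.3 CPM against 28.9 and 41.7 CPM. Of 27 assembly and rRNA modification factors tested, 10 had both knockdown libraries above both controls (37.0%, against a background of 18.1%), 4 had both below (14.8%, against 18.4%), and the median was 0.27. Fastkd2, an RNA-binding protein needed for the large subunit, was at 33.4 and 25.0 CPM in the controls and at 67.1 and 61.1 CPM in the knockdown, with close replicates. Its log2 fold change was 1.12 (SE 0.39; limma, adjusted p = 0.859). Mtg2, an assembly GTPase, was at 2.36 and 1.12 CPM against 7.06 and 19.3 CPM. On the lower side, where Trub2, Lrpprc and Polg were picked after their values were seen, Trub2 was at 46.3 and 54.4 CPM against 29.5 and 27.95 CPM, and among the translation factors Lrpprc, which stabilises mitochondrial messages, was at 16.6 and 23.4 CPM against 14.8 and 7.76 CPM. The 11 transcription and DNA maintenance genes had a median of 0.35, with 9 above 0 and 2 below; both knockdown libraries were above both controls for 5 (45.5%, against 18.1% of all genes) and below for 1, Polg (9.09%, against 18.4%). Tfam, which packages mitochondrial DNA, was at 0.400 and 1.85 CPM against 4.23 and 5.72 CPM, and Polg at 4.08 and 3.29 CPM against 3.19 and 0.880 CPM. The 90 cytosolic ribosomal protein genes tested had medians of -0.56 in A and -0.54 in B against the control mean. Of these, 58 (64.4%) had both libraries below both controls, against a background of 18.4%, and 0 passed the test. The 2 library medians were thus alike in the cytosolic set and of opposite sign in the mitochondrial set, a contrast that was not tested. Transcripts encoded by mitochondrial DNA were not analysed here.

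The immunoprecipitation asks which messages were recovered with His-tagged Eif1ad3 beyond the control beads. His libraries held reads of nearly every member, while the IgG libraries lacked reads for a large part of them. Members without a read numbered 5 and 4 in His A and B (6.49% and 5.19%, against 26.5% and 27.4% of all genes). In IgG A and B they numbered 38 (49.4%) and 43 (55.8%), where all genes stood at 64.8% and 63.0%. The lack of reads in IgG was thus not particular to the members. The median member was at 23.2 and 26.8 CPM in His and at 0.338 and 0 CPM in IgG. The sums ran the other way, at 3858 and 3972 CPM in His and at 5278 and 4392 CPM in IgG. A few genes filled the IgG sums: the 10 highest members held 63.0% and 76.3% of the members' CPM there, against 50.3% and 51.5% in His, and Mrpl48 alone 19.9% and 24.1% in IgG.

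The IgG replicates held the same members only in part. Of the 77 members, 24 were read in both, 25 in 1 alone and 28 in neither (36.4%, against 52.6% of all genes). Of 32 members at 10 CPM or more in IgG A, 13 (40.6%) had no read in IgG B, against 23.1% of all genes. Of 22 at that level in IgG B, 5 (22.7%) had none in IgG A, against 25.5%. In His this held for 0 of 53 and 0 of 56 members. Mrpl45, which ties the particle to the inner membrane, had 261 and 0 CPM in the IgG replicates and 37.2 and 46.4 CPM in the His replicates. Mrpl2, near the site of peptide bond formation, measured 184 and 0 CPM in IgG, and 154 and 144 CPM in His. Mrpl46 gave 0 and 158 CPM with IgG beads against 23.2 and 39.5 CPM with anti-His beads. In each of these 3 genes, picked after their values were seen, His lay between the IgG replicates, so no direction can be read. The members' rank correlation was 0.394 between the IgG libraries and 0.937 between the His libraries (Spearman rho over the 77 members, as a description). With the control embryos' mean level of the other experiment, rho was 0.696 and 0.709 for His and 0.410 and 0.339 for IgG.

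**Figure D4:**
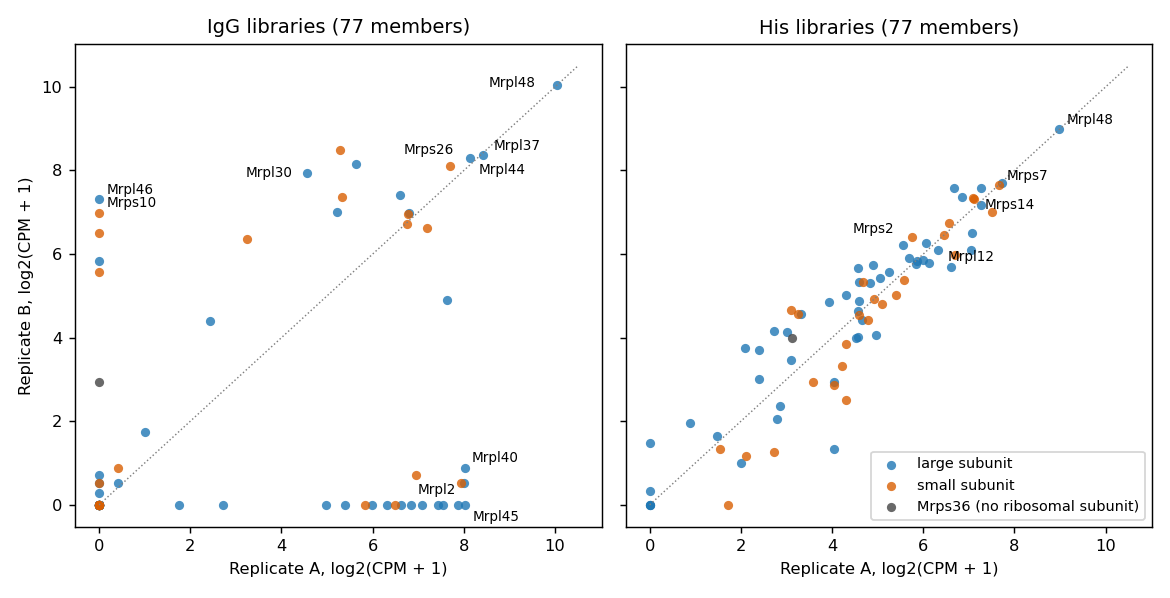
Level of the 77 members in replicate A (x axis) and replicate B (y axis) in log2(CPM + 1), for the IgG libraries on the left and the His libraries on the right; the dotted line marks equal levels. In IgG many members lie on an axis, read in 1 library and not in the other, and in His they follow the line. Labels name members given in the text.

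Of 71 members tested, 23 were higher in His (32.4%, against a background of 35.7%) and 1 was lower, Mrpl48 (background 0.917%), by limma at an adjusted p under 0.05. With the 2 directions together the background was 36.6% of 11232 genes. Members had a median log2 fold change of 1.91, and all genes tested one of 2.01. With quantile normalization, which makes all libraries' distributions equal, the medians were 0.042 and -0.08, and the members split into 36 above 0 and 35 below. With it 0 members were called by limma, with 14 at an unadjusted p under 0.05, and no share of all genes is set beside these counts. Without it the share of members called higher (32.4%) was near the background (35.7%). With DESeq2 28 members were higher (background 42.4%) and 7 lower (6.65%), and with edgeR 0 were called, as were 0% of all genes, with 27 at an unadjusted p under 0.05 and a smallest adjusted p of 0.0547. Leaving out a library moved the count from 0 to 56: 56 without IgG A (69.1% of all genes called), 53 without IgG B (70% of all genes), and 0 of the 43 or 42 members still tested without His A or His B (0.0889% and 0.0888% of all genes), with the lone library again assumed to vary as the other group does. Both His libraries were above both IgG libraries for 36 members (50.7%, against 54.1%) and below for 9 (12.7%, against 9.06%).

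All 23 calls in the higher direction came from members with under 1 CPM in both IgG libraries, which entered the test through His alone and so had to differ. There were 28 such members. Of the 43 members with 1 CPM or more in an IgG library, 0 were called higher by limma and 1 lower, where among all genes of that kind 5.25% and 1.48% were. At 0 reads in both IgG libraries there were 23 tested members, and their mean His level ran from 1.71 to 73.2 CPM. Measured against the mean of 3 reads in each IgG library (0.574 CPM), these mean levels were at least 2.99-fold to at least 128-fold higher. The median bound was 27.6-fold. These bounds cover counting error only. An IgG count of 0 does not otherwise cap a level, as 13 of 32 members at 10 CPM or more in IgG A had no read in IgG B. The 6 members not tested were Mrpl33, Mrpl52 and Mrps34, at 0 to 2.90 CPM in His, and Mrpl1, Mrpl19 and Mrpl39, without a read in all 4 libraries.

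Among those called higher that had reads in IgG, the largest fitted log2 fold change on the log2(CPM + 1) scale was that of Mrps14. It is given as a description, like the others here that entered through His alone. Mrps14 is a small-subunit protein with a bacterial homologue in the head of the particle. It was at 0.338 and 0.855 CPM in IgG, from 2 and 4 reads, and at 137 and 160 CPM in His. Its log2 fold change was 6.56 (SE 0.74), and the replicates within His were close. Genes without a read in IgG have a lower bound only and are not ranked against it. Each bound is for the mean of the 2 His libraries and covers counting error only. Mrpl12, the stalk protein, had no read in IgG and was at 79.3 and 67.1 CPM in His, at least 128-fold higher. Mrps2 had none in IgG and was at 52.7 and 83.9 CPM in His, at least 119-fold higher. Both His libraries of these genes were far above the level that 3 reads would give in IgG. Mrpl24, near the exit of the peptide tunnel, was at 46.3 and 73.8 CPM in His, and Mrpl55 at 31.9 and 42.3 CPM, with no read in IgG, at least 105-fold and 64.7-fold higher. Mrps18a, the large-subunit paralog, had no read in IgG and was at 18.8 and 31.3 CPM in His, at least 43.7-fold higher. Its paralogs differed in what IgG held. Mrps18b had 55.9 and 0 CPM in the IgG replicates and 8.49 and 22.9 CPM in the His replicates, between the IgG replicates. Mrps18c had no read in IgG and was at 1.91 and 1.52 CPM in His, at least 2.99-fold higher, on 16 and 12 reads. With quantile normalization its fitted log2 fold change turned to -0.63.

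Mrpl48 had the highest CPM of the members in the 2 IgG and the 2 His libraries and was the single one called lower by limma. It measured 1053 and 1057 CPM in IgG, and 505 and 504 CPM in His. Its replicates were close to each other in both groups, and both His libraries were below both IgG libraries. The log2 fold change was -1.06 (SE 0.14; limma, adjusted p = 0.0136), against a median of 2.01 for all genes tested. The call was lost without the mean-variance trend (limma, adjusted p = 0.111), with the replicate letter as a block (limma, adjusted p = 0.0535), with quantile normalization (limma, adjusted p = 0.191), by edgeR (adjusted p = 0.0803) and without either His library, while the direction was the same in each. Another 4 members had the smallest p in this direction without passing. Mrpl44, of the large subunit, gave 279 and 313 CPM with IgG beads against 62.3 and 56.8 CPM with anti-His beads (log2 fold change -2.29, SE 0.57; limma, adjusted p = 0.0569). Mrpl44 passed with a pseudocount of 0.1 (limma, adjusted p = 0.0424), after median rescaling (0.0476), without the trend (0.0281), without either IgG library and by DESeq2 (6.99e-08). It did not pass with the replicate block (limma, adjusted p = 0.275), with quantile normalization (0.165), by edgeR (0.0998) or without either His library. Nor did Mrpl44 pass with a pseudocount of 5, with no filter on low values or with a filter at a mean of 5 CPM. Mrpl37, of the large subunit, was at 339 and 330 CPM against 133 and 89.3 CPM (-1.61, SE 0.50; limma, adjusted p = 0.0956). Mrps26, a mitochondria-specific small-subunit protein, was at 207 and 273 CPM against 103 and 62.3 CPM (-1.56, SE 0.63; limma, adjusted p = 0.167). Mrps21, which has a bacterial homologue, was at 144 and 98.3 CPM against 46.7 and 40.5 CPM (-1.43, SE 0.76; limma, adjusted p = 0.273). In all of them the His libraries lay below the IgG libraries. DESeq2 called these 4 lower as well, with Mrpl48, Mrpl30 and Mrps6.

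**Figure D5:**
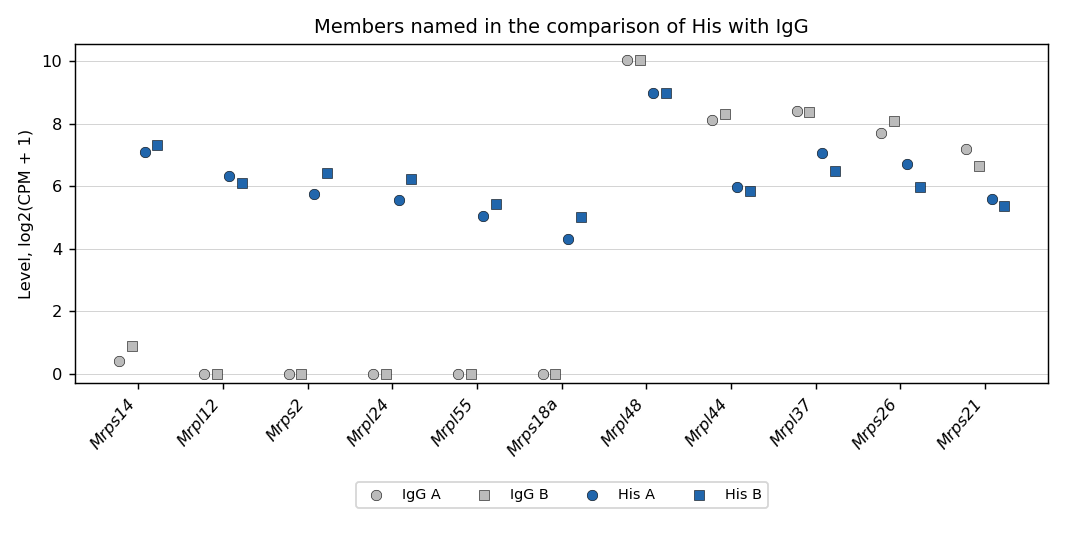
Level in log2(CPM + 1) (y axis) of 11 members in the 2 IgG libraries (grey) and the 2 His libraries (blue); circles are replicate A and squares replicate B. The 6 on the left are at or near 0 in IgG, and in the 5 on the right both His libraries lie below both IgG libraries.

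The gene spans of 18 of the 77 members overlap another gene of the table, by RefSeq names on GRCm38.p6, and the strand setting of the counting is not given in the sources used here, so reads of such pairs cannot be told apart by strand. Mrpl48 overlaps Rab6a, which had 0 and 40.0 CPM in the IgG replicates and 52.0 and 36.2 CPM in the His replicates, and did not follow it. Mrpl44 overlaps Wdfy1, with 229 and 57.7 CPM in IgG and 5.14 and 9.47 CPM in His, so that both genes were lower in both His libraries. Mrpl37 overlaps Cyb5rl, which had no read in IgG and was at 13.0 and 7.58 CPM in His. Mrps26 and Mrps21 overlap none. Of the members described with values, Mrpl24 (Rrnad1), Mrps18a (Rsph9), Mrps25 (Nr2c2), Mrpl2 (Klc4) and Mrpl19 (Gcfc2) overlap another gene too. The part of the overlaps in these values was not tested.

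By subunit, the called members were 14 higher and 1 lower of 45 tested in the large subunit and 9 higher of 25 in the small, with medians of 2.31 and 1.65. The genes with bacterial homologues gave 18 higher of 43, median 2.43, and the mitochondria-specific genes 5 higher and 1 lower of 27, median 1.39. All of the higher calls came from members that entered through His alone, and the counts, set beside 35.7% higher over all genes, are a description. Members that entered in this way were 21 of the 43 with bacterial homologues and 7 of the 27 mitochondria-specific ones. Of the others, 0 were called higher in either class. Mrps30 measured 196 and 28.9 CPM in IgG, and 27.6 and 38.3 CPM in His, where His A was below both IgG libraries and His B between them. Mrps36 gave 0 and 6.63 CPM with IgG beads against 7.65 and 15.03 CPM with anti-His beads. Of the 5 ribosomal proteins under other symbols 0 were called by limma, with 0 at an unadjusted p under 0.05, and their median was -0.22. Of 11 translation factors tested 4 were higher (Gfm1, Tsfm, Mrrf and Guf1) and 0 lower, and all 4 entered through His alone, as did 5 of the 11. Tsfm, the exchange factor of the mitochondrial elongation factor, had 0 and 0.427 CPM in the IgG replicates and 94.5 and 96.7 CPM in the His replicates. Of 24 assembly and rRNA modification factors 9 were higher, 7 of them through His alone, and 1 lower, Trub2. The background for each of these lists is 35.7% higher and 0.917% lower over all genes tested, and 84.9% higher among genes with under 1 CPM in both IgG libraries. Ngrn had no read in IgG and was at 95.4 and 63.2 CPM in His, and Rpusd4, a pseudouridine synthase, had none and was at 22.5 and 25.6 CPM. Of 7 transcription and DNA maintenance genes tested 1 was higher (Ssbp1, through His alone) and 1 lower. The lower one was Polg, the mitochondrial DNA polymerase, with 609 and 473 CPM in the IgG replicates and 26.5 and 53.3 CPM in the His replicates. Its log2 fold change was -3.80 (SE 0.67; limma, adjusted p = 0.0261). Of 88 cytosolic ribosomal protein genes tested 13 were higher, 11 of them through His alone, and 1 lower, with a median of 0.00.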

How the data were processed

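Messenger RNA of mouse 2-cell embryos was sequenced in 12 labelled samples, of which 8 libraries were used. Another 4 columns of the immunoprecipitation table were not used, because their names do not decide between the input and total samples, and the planned comparisons with them were not made. The authors deposited counts scaled to the library total (CPM) for each experiment in its own table; per the submitters' processing notes, Trim Galore 0.6.7, FastQC, HISAT2 2.2.1, featureCounts 2.0.1, edgeR and the build GRCm39 were used, with no roles given. All deposited values were whole multiples of the CPM of 1 read (100% within 0.05 reads), so reads were recovered for the count tests. Levels were compared as log2(CPM + 1) with limma 3.58.1 (lmFit, eBayes with a mean-variance trend, R 4.3.3), within a table, over genes reaching 1 CPM in 2 or more libraries. P-values were two-sided and Benjamini-Hochberg adjusted over all genes tested, with a threshold of 0.05. A fold change on this scale understates that of low genes. Alternatives were edgeR 4.0.16 (quasi-likelihood, TMM) and DESeq2 1.42.0 on recovered reads, other pseudocounts, filters and scalings, a replicate block, and each library left out in turn. The limma fit was tested on simulated data: it recovered the changed genes at a small simulated spread between replicates and missed most or all at a large one. Named members were, per direction, the 5 with the largest change among those passing with groups apart and a mean of at least 10 CPM, filled up by smallest p; the 4 highest and 4 lowest in controls; the 3 highest in His with no IgG read; and those with misleading symbols or paralogs. From each other list up to 3 genes with the smallest p in a comparison were eligible; others named beside a count (Guf1, Trub2) or as members of a list were outside this rule. The members and lists were chosen with earlier results of these data known.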

Additional observations from a re-analysis of the deposited data

How the results depend on the processing

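For knockdown against control, 0 members were called under every alternative except leaving out a knockdown library, with a range of 0 to 11. All 185 values of the named members under the other alternatives kept their direction and their side of the threshold; of 72 leave-one-out values, 55 did, 6 passed the threshold and 11 reversed. Leave-one-out ranges that crossed 0 (log2) were -0.78 to 0.0084 for Mrpl34, -0.28 to 0.023 for Mrpl40, -0.92 to 0.52 for Mrpl48, -1.03 to 1.51 for Mrps18a, -0.19 to 0.87 for Mrps18b, -0.20 to 0.43 for Mrps30 and -0.28 to 0.17 for Mrps36. For His against IgG, the member median was 3.67 with a pseudocount of 0.1, 0.96 with 5, 1.75 with no filter on low values, 1.66 after median rescaling, 0.042 after quantile normalization, 1.07 by edgeR and 0.87 by DESeq2, and 0.89 to 3.16 with a library left out. The median of all genes moved too: 3.66, 0.94, 1.24, 1.77, -0.08, 1.56 and 1.30 under the same 7 settings. The count of called members was 0 with quantile normalization, 0 with edgeR, and 0 to 56 with a library left out; without a His library fewer members could be tested. Mrps18b reversed under quantile normalization (-1.60), edgeR (-1.08) and DESeq2 (-1.38), Mrps18c (-0.63) and Mrps36 (-0.71) with quantile normalization, and leave-one-out ranges crossed 0 for Mrps18b (-1.92 to 3.91) and Mrps30 (-2.56 to 0.17). Of 149 values of the named members in that comparison, 119 kept direction and side of the threshold, 18 no longer passed, 7 newly passed and 5 reversed; of 46 leave-one-out values, 29 kept both, 4 no longer passed, 11 newly passed and 2 reversed. The cause was not tested. Replicate letters A and B are shared by name only: deviations of same-letter libraries had a correlation of 0.15 in the knockdown and -0.014 in the immunoprecipitation experiment. With the letter as a replicate block, 0 members were called in the knockdown, where 2 of all genes tested were. In the immunoprecipitation the same 23 members were called higher as without the block, 21 of them without a read in IgG. Mrpl48 was lost there, and no share of all genes is set beside this count. At 1 CPM in place of 0 reads, the members under the limit numbered 5 and 4 in controls A and B, 0 and 4 in the knockdown, 40 and 53 in IgG and 6 and 5 in His. The alternatives planned for comparisons with input and total were not run.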
